A study of Mus musculus with 4 samples.

Results

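Brown and beige thermogenic genes were followed in white adipose tissue of mice on a high fat diet (HFD) over successive generations. The 8 members were listed by name, with no rule on their values: Ucp1, Cidea, Dio2, Ppargc1a, Prdm16, Cox7a1, Cox8b and Elovl3. All probes that the platform annotation assigns to these symbols were used, 11 of 45281 probes, and 8 of the 19057 genes that the annotation names. All mice were 9 months old females of C57BL/6, a common inbred strain. Each of the 3 HFD arrays carried a mix of 4 samples from mice of the F0, F1 or F2 generation, whose food drew 60% of its calories from fat. The chow array carried a mix of 3 samples from mice on normal chow. Neither the fat depot, nor the parents' diet, nor whether separate animals gave the mixed samples is given in the sources used here, and all groups share strain, sex and age. As each group is 1 array, differences between 2 arrays are described by size without a replicate check, and precision is limited by the number of arrays.

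Signals were measured on Illumina bead arrays and are given on a log2 scale after background correction and quantile normalization, so that a difference of 1 is a 2-fold difference. Detection meant a detection p-value under 0.01, which sets a probe's brightness against that of the negative control beads. Detected probes made up 38.5% of all on F0, 37.8% on F1, 40.9% on F2 and 39.8% on chow, and 11384 genes had a probe detected on at least 1 array. The lowest detected log2 signal was 4.89 on the F0 array, 4.94 on F1, 4.77 on F2 and 4.82 on chow. The only technical gauge within these arrays is the spread between probes of the same gene: over 3069 genes with several detected probes, the SD of their log2 difference from chow was 0.305 on F0, 0.290 on F1 and 0.314 on F2. The tissue label was checked against adipocyte markers, of which 17 of the 20 listed were detected. Adiponectin (Adipoq), a hormone made by adipocytes, had log2 signals of 13.68 on F0, 13.49 on F1, 13.17 on F2 and 13.64 on chow.

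Brown adipocytes, and the beige adipocytes that arise within white fat, burn fuel to make heat. The uncoupling protein encoded by Ucp1 lets protons return across the inner mitochondrial membrane without making ATP, so that the respiratory chain runs fast and its energy leaves as warmth. In mice this program is switched on by noradrenaline through cyclic AMP, by local activation of thyroid hormone, and by coactivators such as the product of Ppargc1a, while the product of Prdm16 helps to set the brown or beige identity of the cell.

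The promoters of Ucp1, Dio2 and Ppargc1a are shown because these members answer to cyclic AMP in brown fat, and because Ucp1 carries the largest difference of the set besides Cidea. Promoter sequences of 6 of the 8 members were matched by symbol in a RefSeq table of build GRCm38.p6, and each window of 300 bases runs from 250 bases before to 50 bases after the gene's start. The Ucp1 window is chr8:83290098-83290397 on the plus strand, the Dio2 window chr12:90738989-90739288 on the minus strand and the Ppargc1a window chr5:51567676-51567975 on the minus strand. Capitals mark TGACG or its reverse complement CGTCA, the core of the element bound by cyclic AMP response factors, together with the full palindrome TGACGTCA and, in the Ucp1 window, the nuclear receptor core AGGTCA (other strand TGACCT).
Ucp1: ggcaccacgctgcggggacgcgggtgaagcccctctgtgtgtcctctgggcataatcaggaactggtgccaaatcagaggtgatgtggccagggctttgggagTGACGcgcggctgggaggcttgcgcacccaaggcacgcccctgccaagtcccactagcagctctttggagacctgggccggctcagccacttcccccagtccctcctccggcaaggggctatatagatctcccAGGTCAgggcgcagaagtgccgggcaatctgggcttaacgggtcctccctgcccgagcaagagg
Dio2: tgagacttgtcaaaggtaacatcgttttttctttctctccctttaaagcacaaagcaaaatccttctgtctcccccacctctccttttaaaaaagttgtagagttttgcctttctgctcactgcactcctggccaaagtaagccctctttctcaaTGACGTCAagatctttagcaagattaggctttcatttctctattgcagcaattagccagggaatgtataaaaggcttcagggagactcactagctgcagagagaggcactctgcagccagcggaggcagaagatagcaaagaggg
Ppargc1a: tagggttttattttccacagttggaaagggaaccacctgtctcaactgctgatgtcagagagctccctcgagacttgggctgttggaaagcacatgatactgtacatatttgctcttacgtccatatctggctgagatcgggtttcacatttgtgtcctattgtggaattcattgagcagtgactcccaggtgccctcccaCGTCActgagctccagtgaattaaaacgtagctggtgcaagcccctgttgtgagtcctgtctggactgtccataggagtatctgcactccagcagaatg
In the Ucp1 window TGACG begins 147 bases and AGGTCA 14 bases before the start. The Dio2 window holds TGACGTCA, in which both strands' copies of TGACG overlap, and the Ppargc1a window holds CGTCA, which begins 49 bases before the start. On either strand, TGACG was found in 3 of the 6 member windows and in 20.8% of 32851 promoter windows of the same length in the table. TGACGTCA was found in 1 of the 6 and in 1.79% of all windows, and AGGTCA in 1 of the 6 and in 16.3%. These are matches of letters and not measured sites.

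Transcripts of Ucp1 and Cidea were much lower on all 3 HFD arrays than on the chow array. Ucp1 had log2 signals of 5.89 on F0, 5.40 on F1 and 4.71 on F2, against 8.37 on chow. In the deposited linear intensities, before background correction, these were 98.9, 82.0 and 66.3 on F0, F1 and F2, against 387 on chow. The chow array stood far above the others, and on the F2 array Ucp1 was not detected (detection p-value 0.0160). Ucp1 was thus 5.59-fold lower on F0 than on chow, 7.82-fold lower on F1, and at least 12.1-fold lower on F2, where the lowest detected signal of that array stands in for the undetected one.

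Cidea, which encodes a lipid droplet protein that is abundant in brown fat of mice, followed the same order. Its log2 signals were 6.91 on F0, 6.37 on F1 and 5.96 on F2, against 9.53 on chow, and the deposited intensities 156, 121 and 106, against 789. It was detected on every array, and the difference from chow was 6.12-fold on F0, 8.90-fold on F1 and 11.8-fold on F2, lower each time. Of the 8 members, Ucp1 and Cidea were at least 2-fold lower than chow on F0, where 6.65% of the 11384 genes were, and on F1, where 6.31% of genes were. On F2 Cox7a1 joined them, so that 3 members were at least 2-fold lower, where 8.24% of genes were. In the other direction 0 members were 2-fold or more above chow, where 6.69% of genes were on F0, 7.38% on F1 and 9.35% on F2. In bulk tissue, fewer cells of a type and less RNA per cell cannot be told apart.

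**Figure D1:**
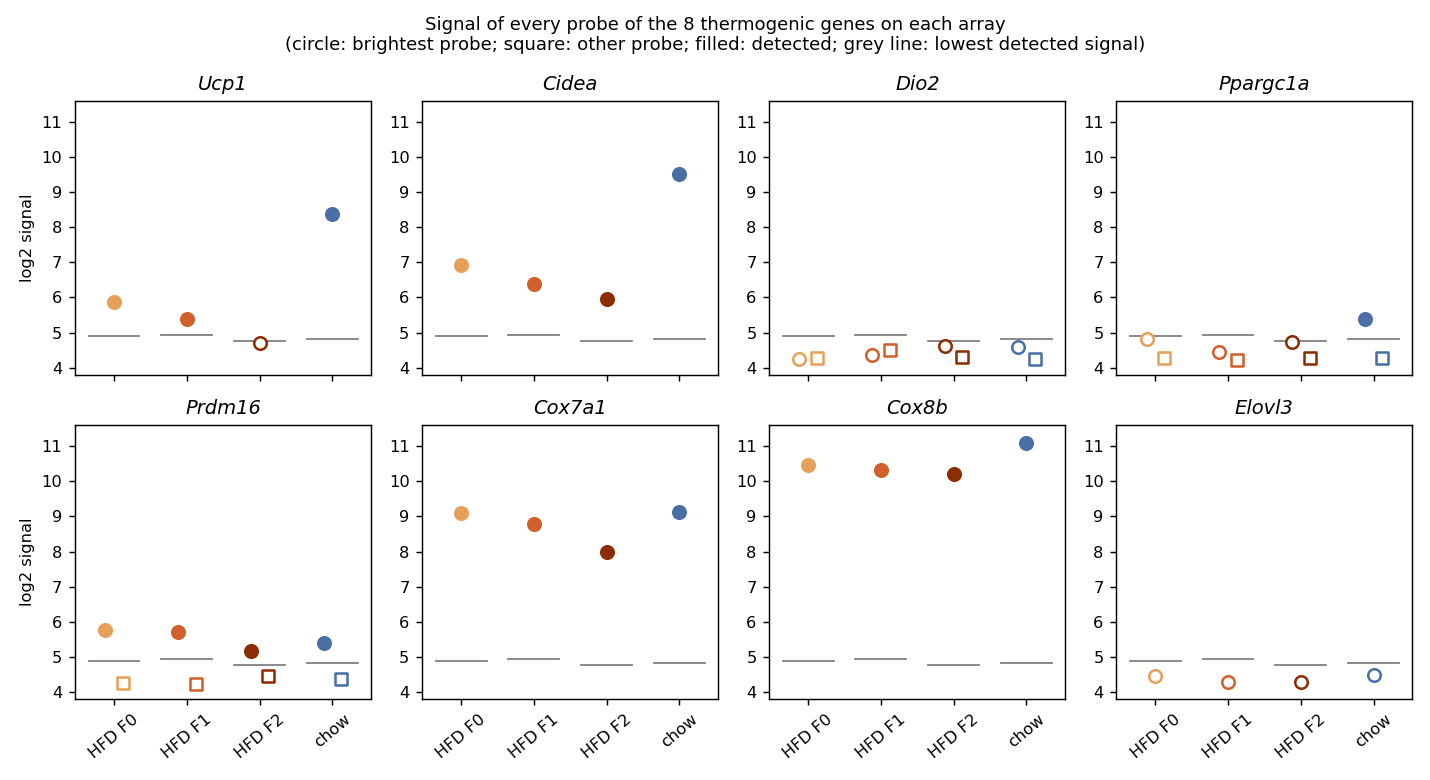
Log2 signal (vertical axis) of each of the 11 probes of the 8 thermogenic genes on the HFD F0, F1, F2 and chow arrays. Circles are each gene's brightest probe, squares its other probe, filled marks are detected signals and grey lines the lowest detected signal of the array. Ucp1 (8.37) and Cidea (9.53) stand highest on chow, while both Dio2 probes and the Elovl3 probe stay below the grey lines on every array.

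The pooled comparison took the 3 HFD arrays as 3 samples of the diet against the 1 chow array, so the spread in the test is the spread among generations, and the chow side has none of its own. Limma's moderated test was run over all 11384 genes with Benjamini-Hochberg adjustment at 0.05. Ucp1 fell by 3.04 ± 0.48 (log2, limma's SE, adjusted p = 0.0351) and Cidea fell by 3.11 ± 0.40 (limma, adjusted p = 0.0230). With the undetected F2 signal at its bound, the pooled Ucp1 difference was at least 8.09-fold. These 2 of the 8 members fell and 0 rose, 4 were tested without passing, and 2 were not detected. Among all genes tested 388 fell, 3.41% of them, and 330 rose, 2.9%. That split became 682 that fell and 160 that rose with the authors' own background-subtracted values.

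Both calls were lost in 2 of the 12 alternatives tried. Without the F1 array the differences were -3.07 for Ucp1 (limma, adjusted p = 0.119) and -3.09 for Cidea (limma, adjusted p = 0.0974), and with the authors' background-subtracted values, floored at 16 here, -3.58 and -3.39 (limma, adjusted p = 0.113 and 0.0952). Without any background correction Ucp1 fell by 2.17 (limma, adjusted p = 0.0196), and both genes stayed lower in HFD in each of the 12.

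Cox7a1 and Cox8b encode subunit isoforms of cytochrome c oxidase, the last complex of the respiratory chain, that heart, skeletal muscle and brown fat use in mice. Cox7a1 had log2 signals of 9.09 on F0, 8.80 on F1 and 7.99 on F2, against 9.13 on chow. F0 lay beside chow, 1.02-fold lower, and F1 was 1.26-fold lower, which is close to the spread between probes, whereas F2 was 2.19-fold lower. The pooled Cox7a1 difference of -0.50 ± 0.45 did not pass (limma, adjusted p = 0.538). Cox8b had log2 signals of 10.46 on F0, 10.32 on F1 and 10.20 on F2, against 11.10 on chow. All 3 HFD arrays lay close together and below chow, by 1.56-fold on F0, 1.71-fold on F1 and 1.86-fold on F2. The pooled Cox8b difference was -0.77 ± 0.17 (limma, adjusted p = 0.0717), and -0.71 without the F2 array. Cox8b passed in that second fit, but far more genes passed there than in the main fit, so nothing is read from its call.

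Most respiratory chain subunits that all tissues share lay somewhat below chow, and none passed the test. Of 39 listed, 32 were tested, 0 fell and 0 rose, yet 30 of the 32 had a pooled difference below 0, as had 52.5% of all genes. Below chow on all 3 HFD arrays lay 26 of the 32 and 38.6% of all genes. By limma's p before adjustment, 11 were lower and 0 higher at 0.05, where 1568 of all genes, 13.8%, were lower and 1260, 11.1%, higher. Their median log2 difference was -0.37, beside -0.03 over all genes tested. The values were -0.81 ± 0.20 for Sdhb, a subunit of succinate dehydrogenase (limma, adjusted p = 0.0836), and -0.70 ± 0.17 for Uqcrc2 of complex III (limma, adjusted p = 0.0808). Cyc1, the cytochrome c1 gene, and Ndufa9, of complex I, differed by -0.67 and -0.60.

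Skeletal muscle genes also differed between these arrays, and muscle uses Cox7a1, Cox8b and Ppargc1a. Of 22 muscle markers 18 were tested, 10 fell and 0 rose, with a median difference of -1.51. All 18 were detected on chow, against 12 on F0, 10 on F1 and 10 on F2. Their summed linear signal was 6671 on F0, 5594 on F1 and 4290 on F2, against 7931 on chow. That sum leans on Acta1, the brightest of the 18 on each HFD array and higher there than on chow. Its log2 signals were 11.72 on F0, 11.07 on F1 and 10.99 on F2, against 10.31 on chow, so the sum differs less than the median does. Markers detected on chow alone entered through it and had to be lower. The pooled difference lay below 0 for 15 of the 18 and above 0 for the other 3, which were Acta1 at 0.95 and Ryr1 at 0.73, the skeletal actin and calcium release channel genes, and Pvalb, which encodes a calcium-binding protein, at 0.60. The part of muscle RNA in the differences of Cox7a1, Cox8b and Ppargc1a was not tested.

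Among the regulators, neither Prdm16 nor Ppargc1a passed the test. Prdm16, which encodes the transcriptional regulator that favours brown over muscle and white fates, had log2 signals of 5.76 on F0, 5.72 on F1 and 5.17 on F2, against 5.41 on chow. Thus F0 and F1 lay slightly above chow and F2 slightly below, with differences of 0.35, 0.31 and -0.24 that are about the size of the spread between probes. The pooled value was 0.14 ± 0.32 (limma, adjusted p = 0.819), and the second Prdm16 probe was not detected on any array.

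Ppargc1a, which encodes the coactivator that drives mitochondrial biogenesis, was detected on chow only and by 1 of its 2 probes. That probe had log2 signals of 4.82 on F0, 4.45 on F1 and 4.74 on F2, against 5.39 on chow. Set against the lowest detected signals, Ppargc1a was at least 1.42-fold lower on F0, 1.37-fold on F1 and 1.54-fold on F2. A gene that enters through chow alone had to be lower on the HFD arrays, and the pooled difference of -0.72 ± 0.24 did not pass (limma, adjusted p = 0.153). With the authors' values, floored at 16 so that dim arrays share 1 value, the same difference was -0.70 (limma, adjusted p = 0.000146).

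Other activators of the thermogenic program showed 0 that fell and 0 that rose among 15 tested of 20, with a median of -0.25 beside -0.03 over all genes. Before adjustment, 3 were lower and 0 higher at 0.05 (limma), beside 13.8% and 11.1% of all genes. Irf4, a partner of the Ppargc1a product in brown fat that lymphocytes also use, had log2 signals of 6.18 on F0, 6.04 on F1 and 7.50 on F2, against 8.26 on chow. The F2 array, where B cell genes were high, lay nearer to chow, and the pooled Irf4 difference was -1.69 ± 0.63 (limma, adjusted p = 0.186). The part of lymphocyte RNA in the Irf4 signals was not tested. Ppargc1b, the closest relative of Ppargc1a, differed by -0.93 ± 0.22 (limma, adjusted p = 0.0771), and Ebf2, an early brown lineage factor, by -0.89 ± 0.41 (limma, adjusted p = 0.263). Foxc2, a forkhead factor and 1 of the 3 lower before adjustment, was detected on chow only, at 5.26, and had to be lower. Pparg, the master regulator of fat cells, differed by -0.25. Factors that restrain the program had 0 that fell and 0 that rose among 9 tested of 11 (1 lower and 0 higher before adjustment by limma), with a median of -0.07. Among them Foxo1, which is active when insulin signalling is low, differed by -0.84 ± 0.18 (limma, adjusted p = 0.0632), and Zfp423, which holds white adipocyte identity, by 0.67 ± 0.62 (limma, adjusted p = 0.548). Tle3 and Rbl1 differed by 0.46 and 0.35.

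Dio2 and Elovl3 were not detected on any array. Dio2 encodes the deiodinase that turns thyroxine into the active hormone inside brown adipocytes. Its brighter probe had log2 signals of 4.26 on F0, 4.38 on F1 and 4.61 on F2, against 4.58 on chow, all under the lowest detected signal of their array. The lowest of its detection p-values was 0.0385, on F2, and the chow value was 0.0673. Elovl3 encodes an elongase of very long chain fatty acids that cold induces in brown fat of mice. Its log2 signals were 4.45, 4.28 and 4.29 on F0, F1 and F2, against 4.50 on chow, with a lowest detection p-value of 0.122. For both genes only a bound exists and no fold is given. Probes of some broadly expressed genes, among them Sdha and Ndufs1 of the respiratory chain, were not detected either.

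Thyroid hormone genes gave little more. Of 7 listed, 2 were tested and 0 passed in either direction (0 lower and 1 higher before adjustment by limma). They were Slc16a10, an aromatic amino acid and thyroid hormone carrier, at 1.28 ± 0.25 (limma, adjusted p = 0.0563) and 0.74 as the mean of its probes, and Dio3, which inactivates the hormone, detected on chow only. The receptor genes Thra and Thrb and the deiodinase gene Dio1 were not detected.

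Among relatives of the members only an elongase gene passed the test. Of 22 paralogs 17 were tested, 1 fell and 0 rose (4 lower and 0 higher before adjustment by limma), with a median of -0.01. The 1 that fell was Elovl6, an elongase of lipid synthesis, with log2 signals of 6.83 on F0, 6.96 on F1 and 6.50 on F2, against 11.40 on chow. Its pooled difference was -4.64 ± 0.25 (limma, adjusted p = 0.0129; 0.0879 without the F1 array), and -2.89 as the mean of its probes. Cidec, the Cidea relative of white adipocytes, had log2 signals of 13.54, 13.44 and 12.94 on F0, F1 and F2, against 13.15 on chow, a pooled difference of 0.15 ± 0.28 (limma, adjusted p = 0.772). Cideb was detected on F1 at 5.17 and on F2 at 5.64 only. Ucp3, the muscle relative of Ucp1, differed by -0.01 ± 0.33 (limma, adjusted p = 0.990). Among cytochrome c oxidase genes of most tissues, Cox7a2 differed by -0.33, Cox4i1 by -0.12 and Cox6a1 by 0.12, and Cox7a2l, which encodes a relative that acts in respiratory supercomplexes, by 0.20. The isoforms Cox6a2, of muscle, and Cox4i2, of lung, differed by 0.09 and 0.28. In the other families Elovl1 differed by 0.47 (0.72 as the mean of its probes), Elovl4 by -0.69, Elovl5 by -0.54, Mecom by -0.42 and Pprc1 by 0.07, and none of these passed.

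Of the 6 tested members, Ucp1, Cidea, Cox7a1, Cox8b and Prdm16 were lowest on F2, where Ucp1 was undetected. Ppargc1a was lowest on F1, but it was undetected on all 3 HFD arrays, so nothing is read from its order. Cox7a1 was 2.14-fold lower on F2 than on F0, Ucp1 at least 2.17-fold lower and Cidea 1.93-fold lower. Thus 2 members, Ucp1 and Cox7a1, were at least 2-fold lower on F2 than on F0, where 2.53% of genes were. Against the preceding generation 0 members were at least 2-fold lower, where 0.0703% of genes were for F1 against F0 and 0.799% for F2 against F1. At least 2-fold higher were 0 members in each of these comparisons, where 0.835% of genes were for F1 against F0, 3.09% for F2 against F1 and 4.62% for F2 against F0. Probes of the same gene spread with an SD of 0.162 for F1 against F0, 0.213 for F2 against F1 and 0.239 for F2 against F0. The order F0 above F1 above F2 held for 5 of the 6 tested members and for 30.4% of genes. All 3 HFD arrays lay below chow for 5 of the 6 and for 38.6% of genes, and both patterns held for 4 of the 6 and for 11.8%. Ppargc1a had to lie below chow by its way of entry and stands in the second count, so these counts over the 6 are a description.

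**Figure D2:**
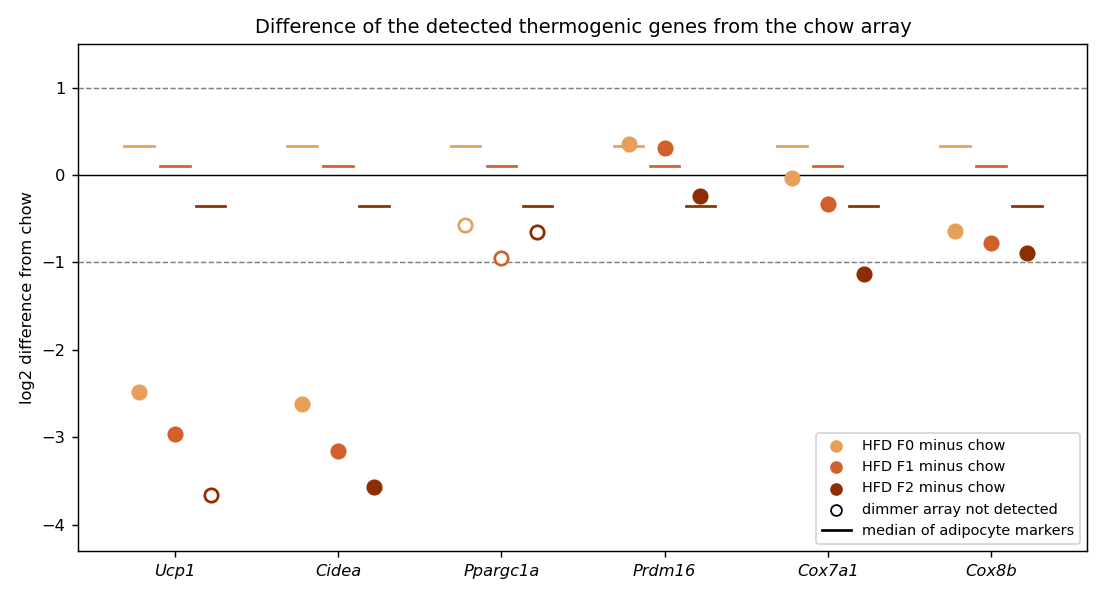
Log2 difference of the 6 tested thermogenic genes from the chow array (vertical axis) on the HFD F0, F1 and F2 arrays, with open circles where the dimmer array did not detect the gene and short bars at the median of the adipocyte markers. Dashed lines mark 2-fold. Ucp1 and Cidea lie between -2.48 and -3.66, far under the bars, while Prdm16 lies between 0.35 and -0.24, beside them.

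Most adipocyte markers were in this order too. Of the 17 tested, 0 fell and 1 rose against chow in the pooled fit, the leptin gene Lep, with a median of -0.05. Their pooled differences ran from -1.37 to 2.38, and 1 of the 17 was detected on F0 only. Of the same 17, 15 had F0 above F1 above F2, and their median difference from chow was 0.34 on F0, 0.10 on F1 and -0.36 on F2. Their summed linear signal was 112202 on F0, 104266 on F1 and 73513 on F2, against 88577 on chow. Relative to the adipocyte median of each comparison, a calculation added after the data were seen, Ucp1 differed from chow by -2.82 on F0, -3.07 on F1 and -3.30 on F2, and Cidea by -2.95, -3.26 and -3.20. By this measure the differences from chow were larger on F0 and F1 and smaller on F2 than before, and the Ucp1 value on F2 is again that of an undetected signal. Relative to the adipocyte median, F2 minus F0 was -0.48 for Ucp1, -0.25 for Cidea and -0.40 for Cox7a1, and 0 members were at least 2-fold lower. The part of adipocyte content in the order of generations was not tested further.

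Genes that mark the lineage of brown adipocytes showed no call. Of 7 brown lineage markers 6 were tested, 0 fell and 0 rose (1 lower and 0 higher before adjustment by limma), with a median of 0.17, and 0.02 with undetected signals at the bound. The 1 lower marker was detected on chow only and had to be lower, and another marker entered through F0 alone. Their summed signal was 1187, 1156 and 973 on F0, F1 and F2, against 1091 on chow. Zic1, the transcription factor that defines classical brown fat, was not detected on any array, with a lowest detection p-value of 0.0427. Beige markers were mostly out of range: Tmem26, Tnfrsf9, Cited1 and Shox2 were not detected, and of the 3 tested 0 passed (1 lower and 0 higher before adjustment by limma). Among these 3, the transcription factor gene Tbx1 had log2 signals of 4.37 and 4.32 on F0 and F1, undetected, and 4.85 on F2, against 5.80 on chow (limma, difference -1.29, adjusted p = 0.0720). Cd40, a receptor that B cells also carry, had 6.87, 7.37 and 8.57 on F0, F1 and F2, against 6.35. Slc27a1, a fatty acid transporter, had 9.89 on F0, 8.44 on F1 and 8.09 on F2, against 8.75, so that F0 lay above chow and the others below, and the pooled difference was 0.05. Of 8 white adipocyte and depot markers, all tested, Tcf21, a factor of visceral fat progenitors, fell by 1.71 (limma, adjusted p = 0.0295) and Wfdc21 rose by 1.91 (limma, adjusted p = 0.0338), with a list median of -0.34.

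Other cell types differed between the HFD and chow arrays at the same time. Macrophage markers had 5 of 14 tested that rose and 0 that fell, a median of 2.03, and summed signals of 26094 on F0, 33095 on F1 and 46185 on F2, against 8066 on chow. Mesothelial markers, of the layer that covers visceral fat, had 6 of 8 that fell and a median of -2.54 (-2.39 at the bound), with summed signals of 1069, 1452 and 1389, against 6126. Some of these 6 were detected on chow only, so they had to be lower and nothing is read from their calls. Smooth muscle markers had 7 of 10 that fell, a median of -2.46 and sums of 18467, 14502 and 16828, against 52985. B cell markers had 0 of 7 that passed, also 0 before adjustment by limma, and their sum was 489 on F0, 489 on F1 and 7970 on F2, against 400 on chow. Hepatocyte markers had 0 of 8 that passed (1 lower and 1 higher before adjustment by limma), with sums of 6357, 9680 and 14972, against 9886. Trf, the transferrin gene, which made most of the chow sum, had log2 signals of 12.56, 12.45 and 12.20 on F0, F1 and F2, against 13.24. The median difference of the 8 hepatocyte markers from chow was 3.18 pooled (2.96 at the bound), with 0.03 on F0, 4.00 on F1 and 5.10 on F2. At least 2-fold above chow were 1 of the 8 on F0, 6 on F1 and 7 on F2, where 6.69%, 7.38% and 9.35% of genes were. Some of these markers were not detected on chow and entered through HFD arrays, so they had to be higher there. The part of these shifts in the Ucp1 and Cidea differences was not tested.

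**Figure D3:**
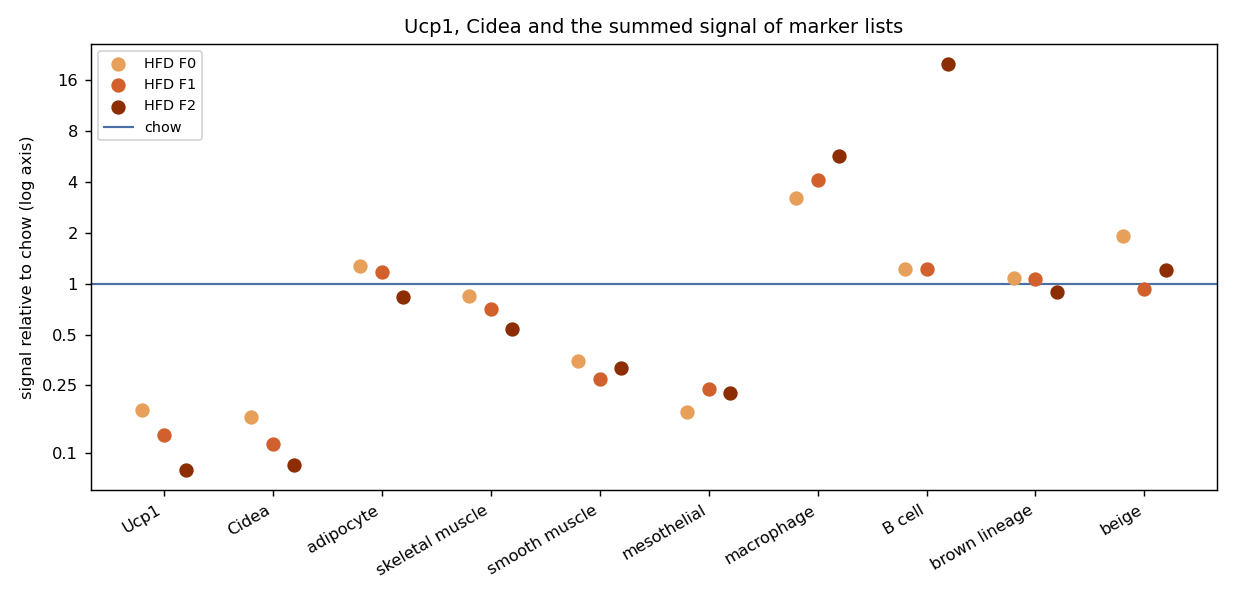
Linear signal relative to the chow array (log axis; chow is the line at 1) of Ucp1, Cidea and the summed signal of 8 marker lists on the HFD F0, F1 and F2 arrays. Ucp1 and Cidea stand lowest on F1 and F2, and beside the mesothelial sum on F0, with adipocyte and brown lineage sums near 1, muscle and mesothelial sums under 1, and macrophage and F2 B cell sums above it.

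Along the pathway that leads to Ucp1, 1 gene passed the test. In adrenergic signalling 11 of 14 listed genes were tested, 1 rose and 0 fell (2 lower and 1 higher before adjustment by limma), with a median of 0.02. The 1 that rose was Adcy3, an adenylyl cyclase that makes cyclic AMP. Its log2 signals were 7.18 on F0, 7.34 on F1 and 7.17 on F2, against 5.29 on chow, so that all HFD arrays lay well above chow, by 1.94 ± 0.22 (limma, adjusted p = 0.0198; 0.127 without the F1 array). Atf2 and Prkar1a, a transcription factor and a regulatory subunit of protein kinase A, differed by -0.52 and -0.48, and by -0.15 and -0.22 as the mean of their probes. Creb1, a factor that cyclic AMP activates, has no settled direction, with 0.34 by its brightest probe, which was detected on F1 and F2, -0.14 as the mean of its probes and -0.69 with the authors' values.

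Secreted regulators and their receptors had 12 tested of 14, with 0 that fell and 0 that rose (3 lower and 3 higher before adjustment by limma), and a median of -0.51 (-0.37 at the bound). Of the 3 higher, 1 was detected on the HFD arrays only and had to be higher. Nrg4, a growth factor that brown fat of mice releases, had log2 signals of 8.88 on F0, 8.58 on F1 and 7.74 on F2, against 10.44 on chow. Every HFD array lay below chow, and the pooled difference was -2.04 ± 0.46 (limma, adjusted p = 0.0720). Bmp4 differed by -1.86 ± 0.37 (limma, adjusted p = 0.0577) and Vegfa by -1.20 ± 0.55 (limma, adjusted p = 0.259). Npr3, the clearance receptor that removes natriuretic peptides, differed by 1.52 ± 0.45 (limma, adjusted p = 0.122).

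Genes that make heat without Ucp1 had 11 tested of 14, 1 that fell and 0 that rose, with a median of -0.79 (-0.39 at the bound). Before adjustment, 6 were lower and 2 higher at 0.05 (limma), beside 13.8% and 11.1% of all genes. Among these 6, the genes detected on chow only, Sln and Ckmt2 among them, had to be lower. The 1 that fell was Sln, whose product sarcolipin uncouples the calcium pump of muscle. Its log2 signals were 4.26 on F0, 4.17 on F1 and 4.23 on F2, all undetected, against 5.82 on chow, and with the HFD arrays at their bound the difference was -0.96 ± 0.15 (limma, adjusted p = 0.0295; 0.117 without the F1 array in the unbounded fit). Like Ppargc1a, Sln entered through chow alone and had to be lower, so nothing is read from its call. Of the creatine cycle, Ckb differed by -0.97 ± 0.26 (limma, adjusted p = 0.102) and Gamt by 0.996 ± 0.361 (limma, adjusted p = 0.178), and Ckmt2, which is also a muscle gene, was detected on chow only.

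Fuel-use genes enriched in brown fat had 14 tested of 18, 1 that fell and 0 that rose (4 lower and 0 higher before adjustment by limma), with a median of -0.30. Gpd2, the mitochondrial glycerol phosphate dehydrogenase that feeds electrons to the respiratory chain, had log2 signals of 8.19 on F0, 8.01 on F1 and 8.01 on F2, against 10.44 on chow. The HFD arrays lay close together, and Gpd2 fell by 2.37 ± 0.18 (limma, adjusted p = 0.0146), with an adjusted p of 0.0906 without the F1 array (limma) and a difference of -1.72 as the mean of its probes. Mtus1 differed by -1.91 ± 0.45 (limma, adjusted p = 0.0792), Clstn3 by -1.05 ± 0.29 (limma, adjusted p = 0.109), and Pdk4, a kinase that spares glucose, by 1.24 ± 0.51 (limma, adjusted p = 0.219).

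**Figure D4:**
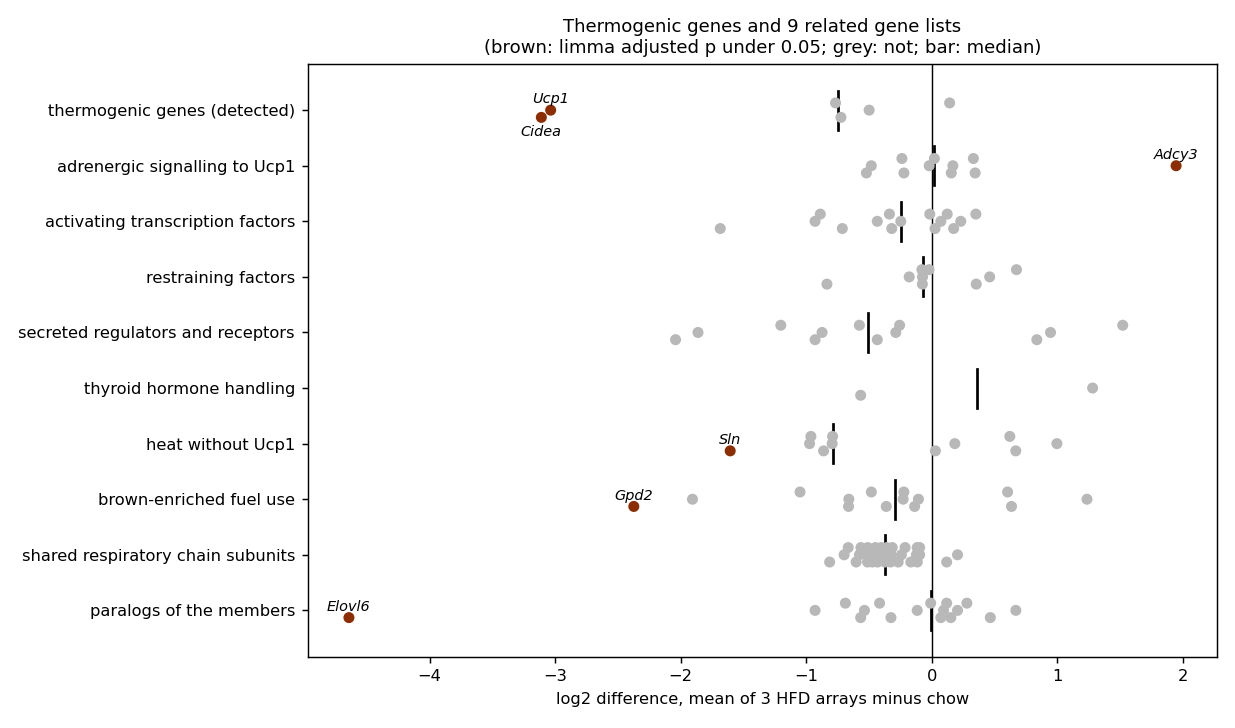
Pooled log2 difference, mean of the 3 HFD arrays minus chow (horizontal axis), of the 6 tested thermogenic genes and of the tested genes of 9 related lists, with 1 point per gene and a bar at each list's median. Named brown points passed limma's test, Sln after entering through chow alone: Ucp1, Cidea, Sln, Gpd2 and Elovl6 lie to the left of 0 and Adcy3 to the right, while the medians stay between -0.79 and 0.36.

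The genes whose profile over the 4 arrays was nearest to each member were taken by the root-mean-square distance between log2 profiles centred on their own mean, among genes detected on all 4 arrays. For Ucp1 the nearest of 9004 genes was Thrsp, a regulator of fatty acid synthesis, at a distance of 0.0585, then Cidea at 0.110 and Nat8l, an enzyme of brown fat that makes N-acetylaspartate, at 0.143. Thrsp had log2 signals of 10.41 on F0, 10.04 on F1 and 9.25 on F2, against 12.84 on chow. For Cidea the nearest were Thrsp at 0.152, the glutathione transferase gene Gsta4 at 0.179 and Fasn, the fatty acid synthase gene, at 0.207. Few genes came as close, with 5 genes within 0.25 of Ucp1 and 5 within 0.25 of Cidea. Profiles of Cox7a1, Cox8b and Prdm16, which varied less than those of Ucp1 and Cidea, had many neighbours. Within 0.25 lay 690 genes for Cox7a1 (nearest Ptprm, C030006K11Rik and Art3), 2049 for Cox8b (Fam171a2, Bckdk and Tubb4a) and 3069 for Prdm16 (Pla2g6, Trappc2 and Setd3). Ucp1 was not detected on F2, so its distances include a signal not above background. With 4 points, 1 of them the chow array that sets the shape, these distances are a description of these arrays.

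**Figure D5:**
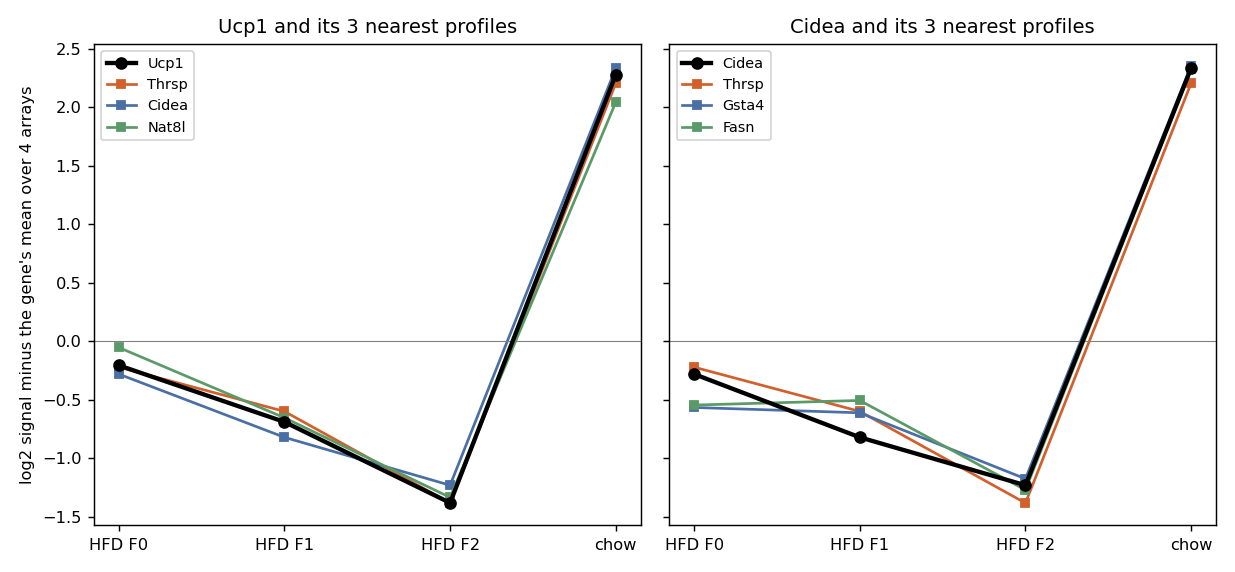
Log2 signal minus each gene's own mean over the 4 arrays (vertical axis) on the HFD F0, F1, F2 and chow arrays, for Ucp1 and its 3 nearest genes (left) and for Cidea and its 3 nearest genes (right). In both panels all lines are lowest on F2 and highest on chow; the Ucp1 signal on F2 was not detected.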

How the data were processed

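Total RNA was turned into biotin-labelled cRNA, per the labels' protocols, and 4 arrays were read. GenomeStudio 2010.2 is named in the submitters' processing notes. The deposited intensity per probe is linear, and all arrays have a mean of 274.4, so they appear to be scaled to it, which no label states. The deposited detection p-value moves in steps of 1 in 936. The authors also deposited background-subtracted intensities, a straight-line function of the first on each array, with a mean of 216.4 and medians of 5.69 (F0), 5.60 (F1), 6.24 (F2) and 6.17 (chow). They are linear, not centred by probe, and served as an alternative. In all, 0 columns of per-sample values were unused.

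From the deposited intensities, background was corrected with nec of limma 3.58.1 (R 4.3.3; controls inferred from the detection p-values, offset 16), then quantile normalization and log2. Of 45281 probes, 34885 have 1 symbol, 18 several and 10378 none. A gene took its brightest probe among those detected on at least 1 array. The pooled fit used lmFit and eBayes with a mean trend, two-sided, with 2 residual degrees of freedom. It was tested on simulated data. The p-values rest on the spread among the 3 generation arrays, and how much of that spread is technical cannot be told. The members, the lists and the rule for named genes were chosen with earlier results of these data known. The rule named all members and paralogs, up to 4 genes per pathway list by size of difference or past the test, and 3 nearest profiles per member; Pparg, Adipoq, Lep, Acta1, Ryr1, Pvalb, Trf, Thrsp's signals and the lineage and depot markers were named after their values were seen. Slide and scan are not given in the sources used here.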

Additional observations from a re-analysis of the deposited data

Results flagged for a closer look

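In 19 of 76 named genes, some HFD arrays lay above chow and others below it, a difference between generations that was not tested. The share over all 11384 genes was not counted, so nothing is read from this number. Some splits were smaller than the spread between probes, as for Pprc1, with 0.02 on F0, -0.05 on F1 and 0.25 on F2. Cideb was not detected on F0 or chow. Prdm16 differed from chow by 0.35 on F0, 0.31 on F1 and -0.24 on F2, a range of 0.595. For related genes the range between the highest and lowest of the 3 differences was 1.53 for Zfp423 (1.32 on F0, -0.21 on F2), 1.37 for Cideb (-0.09 on F0, 1.28 on F2), 0.959 for Cox6a2, 0.835 for Cox4i2, 0.701 for Ucp3, 0.606 for Cidec, 0.499 for Cox7a2l, 0.394 for Cox6a1, 0.373 for Cox4i1 and 0.302 for Pprc1. Among genes named for other reasons it was 1.81 for Slc27a1 (1.14 on F0, -0.67 on F2), 1.21 for Pvalb, 1.15 for Ptprm, 1.13 for Art3, 0.620 for Setd3, 0.572 for Pla2g6, 0.564 for Trappc2 and 0.509 for Adipoq. All share the 1 chow array, and with 1 array per group none was tested for outlying samples.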

How the results depend on the processing

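Ucp1 was called in 10 of 12 alternatives to the pooled fit, with differences from -3.58 to -2.17 and adjusted p from 0.000827 to 0.119, and Cidea in 10 of 12, from -3.39 to -2.61 and 0.000636 to 0.0974 (limma). The 2 that lost both calls were the fit without F1 and the authors' value table, where 682 genes fell, 160 rose and 1 member, Ppargc1a, fell. The cause was not tested. Leaving out each HFD array in turn gave 0 to 1607 genes that fell, 1 to 1569 that rose and 0 to 3 members that fell. Without F1, where limma called 0 that fell (830 lower at an unadjusted p under 0.05), 1 residual degree of freedom lies between F0 and F2. Adcy3, Sln, Gpd2 and Elovl6 lost their call without F1. Creb1 turned to -0.69 with the authors' values. Lep, Tcf21 and Wfdc21 lost their call in the same 2 settings as Ucp1. Members at least 2-fold lower on F2 than on F0 numbered 1 at an offset of 50, 0 with uncorrected background and 0 relative to the adipocyte median. Calls at 1.5-fold gave 4 members lower on F1 and 5 on F2 against chow, 2 for F2 against F1 and 4 for F2 against F0, by construction. Among all genes, those lower in these comparisons numbered 718, 938, 91 and 288 at 2-fold. The highest such counts over the alternatives were 1688, 2205, 871 and 1379. Other alternatives were median scaling, detection p under 0.05, no detection filter, undetected signals at the bound, the mean of probes and no mean trend. Signals near the lowest detected one limit Ppargc1a, Dio2, Elovl3 and Ucp1 on F2. No paired analysis was possible because each group is 1 array.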
